A study of Mus musculus with 20 samples.

Results

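A set of 8 genes whose products acetylate, deacetylate or methylate chromatin were followed in mouse CD8 T cells before and during activation. The set was given as a list of gene symbols: the histone deacetylases Hdac1, Hdac2 and Hdac3, the histone acetyltransferase Hat1, the histone methyltransferases Ezh2 and Suv39h1, and the DNA methylation factors Uhrf1 and Dnmt1. In the annotation of the array's platform 7 of the 8 symbols were found, on 9 probe sets, among 8251 genes with a single symbol on 12488 probe sets; Suv39h1 was not among them and is not analysed here. All 7 passed the filter on dim probe sets, which kept 6279 genes.

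The cells were CD44lo CD8+ T lymphocytes from lymph nodes of OT-1 TCR transgenic C57Bl6 mice aged 6 to 8 weeks, in which nearly all CD8 T cells carry a single receptor for an ovalbumin peptide on H-2Kb. Naive cells at 0 h (3 arrays) had received no stimulating agent. All other cells had been cultured with Ag-B7, which are microspheres carrying that peptide complex together with B7-1, a costimulatory protein, and with human rIL-2. Ag-B7 alone gave 4 arrays at 48 h and 1 each at 24 and 72 h; Ag-B7 with murine rIL-12, and Ag-B7 with universal type I IFN (IFNa/b), each gave 3 arrays at 48 h and 1 at 24 and 72 h; Ag-B7 with trichostatin A (TSA, an inhibitor of histone deacetylases) gave 1 array, at 72 h. The labels call the replicates biological, without saying whether a replicate was 1 mouse or a pool, and no dose was stated in the labels. No group was cultured without Ag-B7, so Ag-B7, IL-2 and culture time cannot be told apart as sources of a change from naive cells.

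Histone acetyl groups loosen chromatin and are removed by deacetylases, of which HDAC1 and HDAC2 work as the paired catalytic core of the Sin3, NuRD and CoREST complexes and HDAC3 as that of the NCoR and SMRT complexes. HAT1 acetylates newly made histone H4 before it is laid down behind the replication fork. EZH2 is the catalytic subunit of Polycomb repressive complex 2, which methylates histone H3 at silent genes. UHRF1 binds the hemimethylated DNA that replication leaves and brings in DNMT1, which copies the methylation to the new strand. In CD8 T cells several of these enzymes are known for silencing genes of alternative or naive states as effector cells form.

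The sequences around the members' start sites are shown with the letters that cell cycle factors are known to bind. A part of such factors in the members' changes was not tested. RefSeq promoter windows (GRCm38.p6, 250 bases before to 50 after a start site) were held for 5 of the 7 members, in 8 windows, and not for Hdac1 and Hdac3. The window with most CpG pairs of 4 genes is printed 5′ to 3′ on the gene's strand: Ezh2 and Dnmt1, which hold an E2F word, Uhrf1, which rose most after 48 h of Ag-B7 alone, and Hdac2, which rose least there. Capitals mark TTTGGCGC, a word bound by E2F factors, and CCAAT or its reverse complement ATTGG, the word bound by NF-Y. In the Dnmt1 window a CCAAT and an ATTGG overlap in 1 run of capitals.
Ezh2, chr6:47594981-47595280, minus strand: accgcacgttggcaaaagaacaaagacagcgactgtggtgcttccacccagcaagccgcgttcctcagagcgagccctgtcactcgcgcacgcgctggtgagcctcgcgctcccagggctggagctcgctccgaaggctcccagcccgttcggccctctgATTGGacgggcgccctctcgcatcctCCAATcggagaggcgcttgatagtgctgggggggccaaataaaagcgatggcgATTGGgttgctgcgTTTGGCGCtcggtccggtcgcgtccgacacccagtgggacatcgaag
Dnmt1, chr9:20952574-20952873, minus strand: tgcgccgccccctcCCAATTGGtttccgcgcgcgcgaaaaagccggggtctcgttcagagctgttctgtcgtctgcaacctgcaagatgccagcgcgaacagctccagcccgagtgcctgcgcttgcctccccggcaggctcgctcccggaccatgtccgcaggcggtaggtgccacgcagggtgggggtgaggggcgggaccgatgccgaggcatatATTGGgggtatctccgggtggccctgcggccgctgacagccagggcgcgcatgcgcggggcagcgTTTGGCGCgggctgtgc
Uhrf1, chr17:56304063-56304362, plus strand: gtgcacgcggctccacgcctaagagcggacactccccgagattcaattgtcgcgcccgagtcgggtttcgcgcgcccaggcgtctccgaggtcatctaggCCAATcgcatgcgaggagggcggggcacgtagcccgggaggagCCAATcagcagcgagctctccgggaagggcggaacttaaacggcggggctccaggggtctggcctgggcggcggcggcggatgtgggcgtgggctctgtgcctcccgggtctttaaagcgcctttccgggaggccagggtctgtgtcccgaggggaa
Hdac2, chr10:36974294-36974593, plus strand: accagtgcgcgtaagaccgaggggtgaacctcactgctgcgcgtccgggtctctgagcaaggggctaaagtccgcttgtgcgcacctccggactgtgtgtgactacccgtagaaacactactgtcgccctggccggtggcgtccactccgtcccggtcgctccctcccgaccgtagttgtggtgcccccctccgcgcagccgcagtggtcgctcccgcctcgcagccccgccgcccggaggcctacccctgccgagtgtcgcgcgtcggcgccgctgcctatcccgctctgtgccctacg

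The printed windows, picked for their CpG pairs, hold 31 of them in Ezh2, 33 in Dnmt1, 33 in Uhrf1 and 36 in Hdac2. The windows not printed hold 2 and 12 in Dnmt1, 12 in Uhrf1 and 32 in Hat1, and the median of all 32841 windows of this length is 7, so the count depends on which start site is taken. Both strands were searched for the E2F words TTTCCCGC, TTTGGCGC and TTTGGCGG, for CCAAT, and for the words TTTGAA and TTCGAA of the cell cycle homology region (CHR). TTTGGCGC was in the Ezh2 window, from base 4 to base 11 counted from the first transcribed base as 1, and in the printed Dnmt1 window, from base 34 to base 41; 0.515% of all windows hold it, and 2.1% hold any of the 3 E2F words. CCAAT was in a window of Ezh2, Dnmt1, Uhrf1 and Hat1 and in 37.4% of all windows. A CHR word was in 1 window, another one of Dnmt1, and in 19.2% of all windows. These are matches of letters and not measured binding.

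The arrays of naive cells stood apart from the others. The 3' to 5' ratio of actin was 1.13, 2.06 and 1.61 in replicates 1, 2 and 3, against 1 to 1.15 on the stimulated arrays, and naive arrays correlated across genes at 0.827 to 0.932 where replicates of a stimulated group correlated at 0.948 to 0.966. The spike-in controls averaged 14.26 (log2) on naive arrays and 12.39 to 12.68 in the 48 h groups. CD8 T cell identity was borne out by the markers, 8 of 9 on the array and all of these past the filter, with Cd8a between 6147 and 14482 on every array. Summed signals of other cells' markers were higher on naive arrays: B cell 2191 to 4657 against 598 to 1781, CD4 T cell 654 to 1644 against 137 to 805, myeloid and dendritic 3611 to 10622 against 837 to 3034, erythroid and platelet 6210 to 14512 against 332 to 773, and stromal and endothelial 4552 to 11721 against 1894 to 3934. Of the genes of these 5 lists past the filter, 3 of 5 B cell, 1 of 1 CD4, 5 of 5 myeloid, 1 of 2 erythroid and 3 of 3 stromal genes fell to 48 h of Ag-B7, where 35.6% of all genes did, and 0 rose. For the NK cell list the ranges were 415 to 1116 and 353 to 7449; Klrk1, which activated CD8 T cells are also known to express, ran from 245 to 7193 on stimulated arrays, while Ncr1 stayed between 2 and 127 and Klra7 was 248 to 861 on naive and 20 to 331 on stimulated arrays. The erythroid sum on naive arrays rests on Hba-a1. Single markers differed: on naive and stimulated arrays the B cell marker Ms4a1 was 438 to 1488 and 109 to 382, the monocyte marker Cd14 1441 to 3827 and 304 to 814, and the macrophage gene C1qb 703 to 3042 and 24 to 532, whereas Cd22 (36 to 143 and 20 to 64) and Lyz2 (10 to 58 and 4 to 55) were dim on both. Ranges on naive and stimulated arrays overlapped for Cd79b of the B cell list (143 to 518 and 85 to 592). They also overlapped for Cd68 of the myeloid list (448 to 637 and 100 to 1041). The part of these cells and of RNA quality in the rises below was not tested. The comparisons with naive cells at 48 h were repeated with naive replicate 1 alone, the naive array with the lowest actin ratio. That repeat does not check the part of the other cells.

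After 48 h of Ag-B7 all 7 members were above their naive level, by 1.57-fold (Hdac2) to 20.2-fold (Uhrf1), and for each the 4 stimulated arrays lay above the 3 naive ones. A gene was called at a limma adjusted p (Benjamini-Hochberg, over the 6279 genes) below 0.05. By that rule 26.1% of all genes were higher, and 24.4% had all Ag-B7 arrays above all naive ones. The members' median log2 difference was 1.38, and that of all genes was -0.23. All 7 also rose with IL-12 (24.8% of genes called higher, 25.6% without overlap) and with IFNa/b (25.3% and 26.9%), and 21.8% of genes were called higher in all 3 comparisons, which share the naive arrays. Differences are on the log2(signal + 46.4) scale, and a signal per array is relative to the total labelled RNA, so that a smaller share of cells expressing a gene and less of its RNA per cell cannot be told apart.

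**Figure D1:**
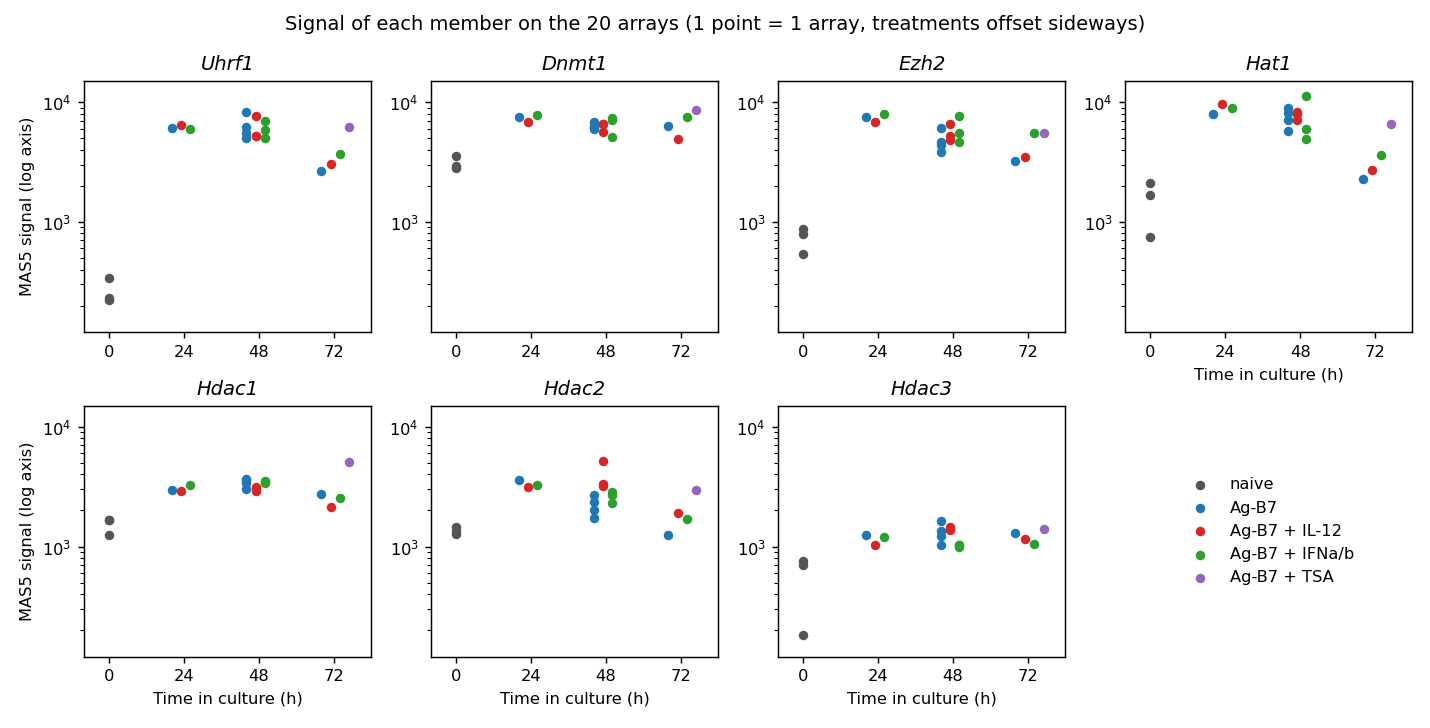
MAS5 signal (log axis) of the brightest probe set of each of the 7 members against time in culture (h), 1 point per array, coloured by treatment and offset sideways. The naive points lie lowest for each gene except Hdac2, whose Ag-B7 array at 72 h (1246) lies below them, and the 72 h points without TSA of Uhrf1, Hat1 and Hdac1 lie below all of their 48 h points.

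Uhrf1, which reads hemimethylated DNA, changed most. Its signal was 338, 230 and 225 on the naive arrays and 5560, 8286, 6184 and 4993 after 48 h of Ag-B7. The lowest stimulated array was thus far above the highest naive one, and the log2 difference was 4.34 ± 0.22 (SE, n = 4 and 3, limma adjusted p = 1.93e-10). With IL-12 the signals were 5253, 7720 and 5181, and with IFNa/b 6980, 5843 and 5023, giving log2 differences from naive of 4.29 and 4.28. The 3 stimulated groups overlapped one another throughout.

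Dnmt1, the maintenance methyltransferase, rose about as much as the deacetylases. Its brighter probe set gave 3549, 2792 and 2917 on the naive arrays and 5909, 6796, 6371 and 6179 after 48 h of Ag-B7, a 2.04-fold rise (log2 difference 1.03 ± 0.17, limma adjusted p = 8.45e-05). The IL-12 arrays gave 5582, 6567 and 6536 and the IFNa/b arrays 5149, 7402 and 7140. A dimmer probe set annotated to Dnmt1, of a type that Affymetrix marks as having fewer unique probes, ran the other way: 270, 496 and 271 on naive arrays and 125, 37, 52 and 95 with Ag-B7. Averaging the 2 probe sets on the log2 scale turned the difference to -0.32 (limma adjusted p = 0.294), so the direction for Dnmt1 rests on the brighter one.

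Ezh2, the Polycomb methyltransferase, rose 6.16-fold. Signals were 865, 543 and 795 in naive cells and 4687, 6089, 4423 and 3798 after 48 h of Ag-B7 (log2 difference 2.62 ± 0.22, n = 4 and 3, limma adjusted p = 9.4e-08). They were 4869, 6513 and 5241 with IL-12 (2.85 from naive) and 7723, 5495 and 4654 with IFNa/b (2.94). Every stimulated array was above every naive one, and the stimulated groups overlapped.

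Hat1, which acetylates new histone H4, rose 5.16-fold. Its brighter probe set, of a type that can share probes with similar sequences, gave 1667, 747 and 2118 on naive arrays and 8919, 8050, 7058 and 5726 after 48 h of Ag-B7 (log2 difference 2.37 ± 0.31, limma adjusted p = 9.28e-06). Without naive replicate 2 (747) the difference was 1.94, still called (limma adjusted p = 2.5e-05). The second probe set moved alike, from 407, 221 and 485 to 2645, 2798, 2099 and 2436, and the mean of both gave 2.51. With IL-12 the brighter probe set read 7045, 8249 and 7906, and with IFNa/b 11228, 6007 and 4951, the widest spread of any stimulated group for this gene.

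The deacetylases rose less. Hdac1 went from 1653, 1243 and 1676 to 3007, 3670, 3376 and 3549 with Ag-B7, a 2.21-fold rise (log2 difference 1.14 ± 0.16, limma adjusted p = 2.29e-05). Its IL-12 arrays (2901, 3136, 3022) and IFNa/b arrays (3402, 3519, 3485) were each close together. Hdac2, its partner in the same complexes, went from 1340, 1264 and 1464 to 2336, 2020, 1722 and 2668, a 1.57-fold rise (0.65 ± 0.20, limma adjusted p = 0.011). The arrays did not overlap, though the lowest Ag-B7 array was near the highest naive one, and with naive replicate 1 alone in the fit the limma adjusted p was 0.0831 at a difference of 0.67.

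Hdac3, the NCoR and SMRT deacetylase, had the widest naive spread, with signals of 759, 182 and 701. With Ag-B7 they were 1216, 1648, 1034 and 1359, a 2.60-fold rise (1.38 ± 0.33, limma adjusted p = 0.00202). The dim naive array is replicate 2, the one with the highest actin ratio and the highest myeloid sum. Without it the difference was 0.79 with Ag-B7 (limma adjusted p = 0.00355) and 0.91 with IL-12, both still called. With IFNa/b it was 1.04 in all arrays (limma adjusted p = 0.0193) and 0.45 without naive replicate 2 (limma adjusted p = 0.0785), no longer called; nor was it called with only the arrays of those 2 groups in the fit (limma adjusted p = 0.0659). With naive replicate 1 alone, 6 of 7 members were called with Ag-B7, 7 with IL-12 and 6 with IFNa/b, while the genes called overall fell from 3876, 3694 and 3664 to 2228, 2212 and 2163.

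Other ways of scaling the arrays left the members' direction from naive as it was, though quantile normalization moved single members unequally (Hdac3 to 1.81 and Hat1 to 2.43 with Ag-B7). The median difference of all genes between Ag-B7 at 48 h and naive was 0.04 after quantile normalization, 0.41 after median centring and 1.3 after scaling to the spike-in controls, and the members ranged from 0.71 to 4.83, 1.30 to 4.98 and 2.34 to 5.70. The genes called higher and lower, 1640 and 2236 here, were 1941 and 1635, 2552 and 1001, and 3781 and 95 under these 3 scalings. Every one of the 7 was called higher under each of them.

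**Figure D2:**
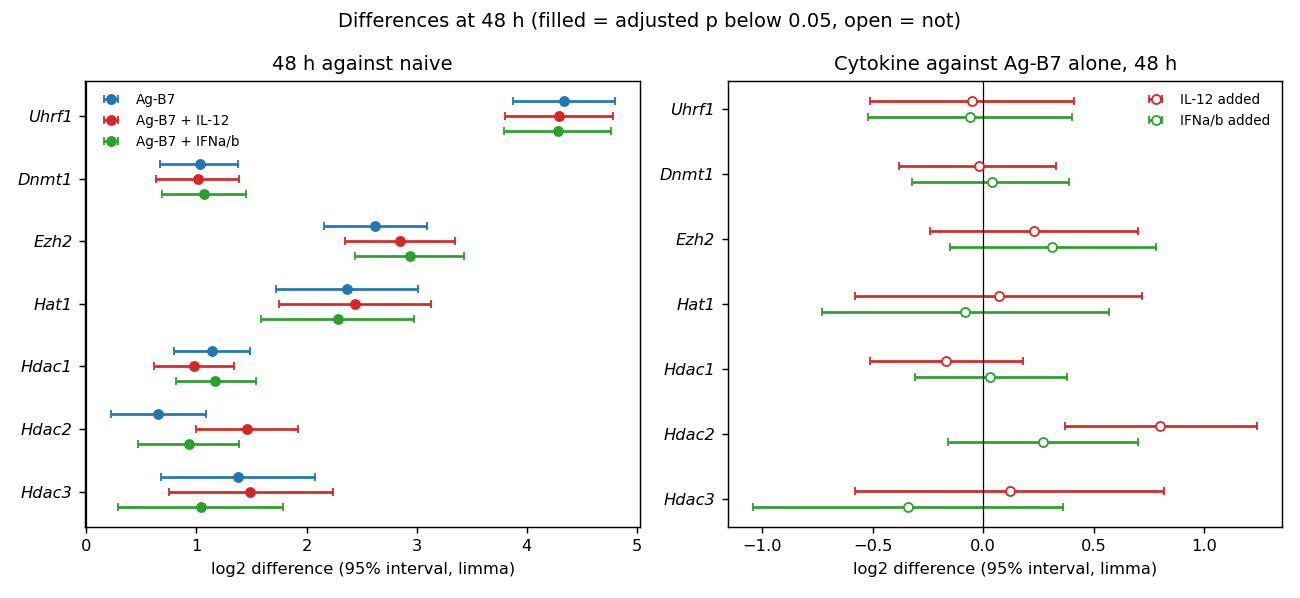
Log2 differences at 48 h with 95% intervals from limma, of each stimulated group from naive cells (left) and of each added cytokine from Ag-B7 alone (right); filled points have an adjusted p below 0.05. All points on the left are filled, with Uhrf1 farthest from 0 at 4.28 to 4.34, and all on the right are open, with Hdac2 and IL-12 farthest from 0 at 0.80.

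The remaining chromatin genes did not share 1 direction. The counts that follow stand beside 26.1% of all genes called higher and 35.6% called lower in Ag-B7 at 48 h against naive. Of 5 other deacetylases past the filter 0 rose and 1 fell (median log2 difference -0.14); the one that fell was Hdac5, a class IIa enzyme (-1.26 ± 0.26, limma adjusted p = 0.000544). Of 15 partners of the class I deacetylases 5 rose and 1 fell (median -0.03). Sap30, a subunit of the Sin3 complex, rose 8.35-fold, and the histone-binding protein Rbbp7 2.98-fold, while the scaffold Sin3a fell (-0.84 ± 0.19). Of 8 other histone acetyltransferases 0 rose and 2 fell (median -0.31), Ncoa3, a nuclear receptor coactivator (-1.37 ± 0.37), and Kat2b (-0.71 ± 0.24).

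Among 16 other Polycomb genes 7 rose and 7 fell (median -0.38). The risers included Bmi1, a subunit of Polycomb repressive complex 1 (2.05 ± 0.34), and Eed, the partner of EZH2 that binds its product (1.15 ± 0.20). The fallers were led by Phf1, an accessory subunit (-2.53 ± 0.22), and Phc1 (-1.70 ± 0.27). Ezh1, the other catalytic subunit, named here after its values were seen, fell by 1.48 on the log2 scale (limma adjusted p = 8.74e-05). Of 7 other DNA methylation genes 3 rose and 0 fell (median 0.21), with Hells, a chromatin remodeller needed for methylation of repeats, up 6.86-fold and the de novo methyltransferase Dnmt3a up 2.33-fold. Of 8 genes of histone H3 lysine methylation and heterochromatin 3 rose and 1 fell (median 0.30): Cbx5, heterochromatin protein HP1 alpha, rose 6.79-fold, the corepressor Trim28 rose 1.73-fold, and Daxx fell (-0.91 ± 0.20).

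Genes that load histones and copy DNA rose in the main. Of 8 chromatin assembly genes 7 rose and 0 fell (median 1.69), led by the histone chaperones Asf1b (9.25-fold) and Nasp (5.53-fold). Of 26 DNA replication genes 24 rose and 0 fell (median 2.19), led by the ribonucleotide reductase subunits Rrm1 (26.1-fold) and Rrm2 (12.7-fold). Of 7 genes that deacetylase inhibitors are known to raise 2 rose and 3 fell (median 0.06), and of 4 reference genes 1 rose, Hprt (1.71 ± 0.19), and 2 fell, Actb (-1.92 ± 0.53) and B2m (-1.17 ± 0.16).

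Set against the median of the 26 replication genes on the same array (a comparison within each array), the members differed in how far they rose. Uhrf1 rose beyond that median by 1.97 ± 0.28 (log2, SD, n = 4) with Ag-B7 at 48 h, 2.03 ± 0.44 with IL-12 and 1.94 ± 0.19 with IFNa/b (n = 3 each). Rrm1, a gene of that list, rose more than Uhrf1 with Ag-B7 (log2 difference from naive 4.71 against 4.34). With Ag-B7 Hat1 (0 ± 0.17) and Ezh2 (0.26 ± 0.22) differed from the replication genes' median level by less than the spread of the naive arrays (SD 0.80 and 0.34). Ezh2 stood at 0.59 ± 0.33 with IL-12 and 0.60 ± 0.33 with IFNa/b. With Ag-B7 alone Hdac1 (-1.22 ± 0.21), Dnmt1 (-1.34 ± 0.14), Hdac2 (-1.71 ± 0.33) and Hdac3 (-0.98 ± 0.30) rose less than the replication genes' median level, although the naive SD of Hdac3 was 1.03. These differences were not tested.

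**Figure D3:**
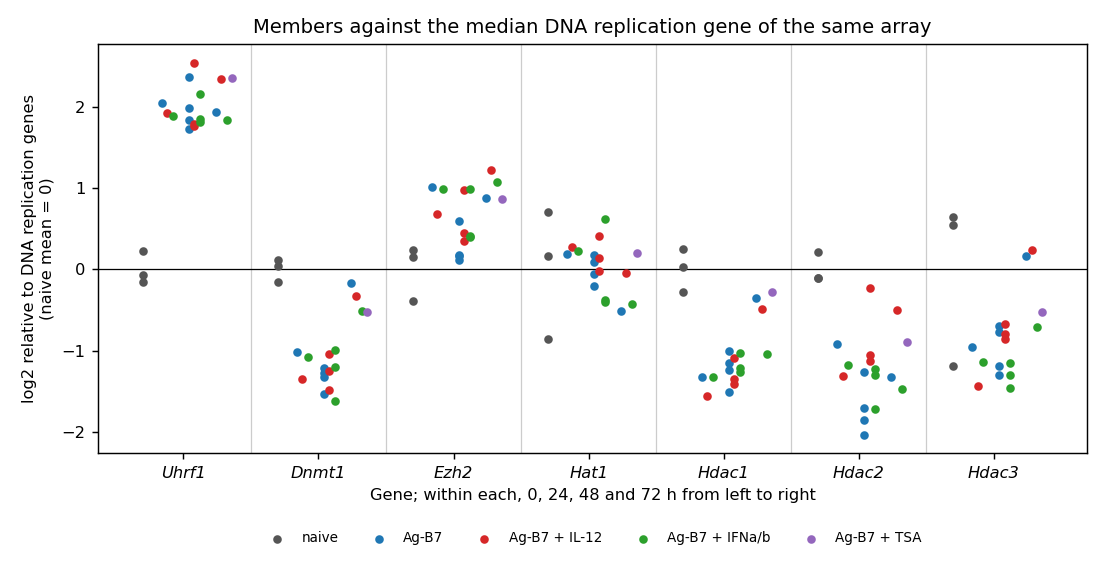
Log2 signal of each member minus the median of 26 DNA replication genes on the same array, with the naive mean set to 0; 1 point per array, from 0 h on the left to 72 h on the right within each gene. Uhrf1 lies between 1.73 and 2.54 on all stimulated arrays, whereas Hdac1, Hdac2 and Dnmt1 lie below 0 on all of them.

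The third signal was asked about by adding a cytokine to Ag-B7. At 48 h 0 of the 7 members were called for IL-12 against Ag-B7 alone, where limma called 0.621% of genes (5.8% at an unadjusted p below 0.05), 0 of 7 for IFNa/b (0.43% called, 4.55% unadjusted) and 0 of 7 for IL-12 against IFNa/b (0.94%, 4.83% unadjusted). The intervals show what these arrays could have missed. For IL-12 the 95% intervals of the log2 difference were -0.51 to 0.41 for Uhrf1, -0.38 to 0.33 for Dnmt1, -0.51 to 0.18 for Hdac1, -0.24 to 0.70 for Ezh2, -0.58 to 0.72 for Hat1 and -0.58 to 0.82 for Hdac3. For IFNa/b they were -0.52 to 0.40 for Uhrf1, -0.32 to 0.39 for Dnmt1, -0.31 to 0.38 for Hdac1, -0.16 to 0.70 for Hdac2, -0.15 to 0.78 for Ezh2 and -0.73 to 0.57 for Hat1. A 2-fold effect, 1 on this scale, lies outside each of these, but within the intervals of the remaining pair, Hdac2 with IL-12 and Hdac3 with IFNa/b, given next.

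Hdac2 was the member closest to a response. Its 3 IL-12 arrays (3173, 5165 and 3356) lay above all 4 Ag-B7 arrays (1722 to 2668) and all 3 IFNa/b arrays (2870, 2303 and 2710). The difference from Ag-B7 was 0.80 ± 0.20, or 1.75-fold (95% interval 0.37 to 1.24, n = 3 and 4), with an unadjusted p of 0.0011 and a limma adjusted p of 0.117, and was not called. Of all genes 3.55% had their IL-12 arrays wholly above their Ag-B7 arrays. IL-12 replicate 2 is the highest; without it the difference was 0.59 (limma adjusted p = 0.664), and over all alternatives the adjusted p lay between 0.0865 and 1. Against IFNa/b the difference was 0.53 ± 0.22 (limma adjusted p = 0.752), again with no overlap, as 6.05% of genes had.

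Hdac3 showed the reverse pattern with IFNa/b. Its 3 arrays (1032, 989 and 1022) lay just below the 4 Ag-B7 arrays (1034 to 1648), as 3.46% of genes did, at a difference of -0.34 ± 0.33 (95% interval -1.04 to 0.36, limma adjusted p = 1). The 3 IL-12 arrays (1399, 1370 and 1457) lay above the IFNa/b arrays by 0.46 ± 0.35 (95% interval -0.29 to 1.2, limma adjusted p = 0.999), an interval that also holds a 2-fold effect. Hdac1 had all IL-12 arrays below all IFNa/b arrays, at -0.20 ± 0.17 (limma adjusted p = 0.999), as 6.59% of genes had.

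Single arrays at 24 h and 72 h gave the same comparison without a replicate check. At 24 h 0 of 7 members passed 2-fold for IL-12 (3.42% of genes did) or for IFNa/b (2.9%); the largest differences were 0.30 for Hat1 and -0.28 for Hdac3, both with IL-12. Hdac2 read 3578 with Ag-B7, 3112 with IL-12 and 3257 with IFNa/b at 24 h, so IL-12 was lower there by 0.20 on the log2 scale. At 72 h 0 of 7 passed 2-fold for IL-12 (9.36% of genes) or IFNa/b (7.5%). Hdac2 read 1246 with Ag-B7, 1922 with IL-12 (0.61) and 1695 with IFNa/b (0.43). Ezh2 read 3210, 3506 and 5496 in that order and Hat1 2262, 2715 and 3608, so that the IFNa/b array was highest for both (0.77 and 0.66 above Ag-B7); the replication genes' median on it, 11.36 (log2), was also above those of the Ag-B7 and IL-12 arrays (10.78 and 10.57), and its part in the difference was not tested.

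The rise was already present at 24 h. Against the naive mean the Ag-B7 array at 24 h was past 2-fold higher for 6 of 7 members, where 19.3% of genes were; the log2 differences were 4.33 for Uhrf1, 3.29 for Ezh2, 2.47 for Hat1, 1.37 for Hdac2, 1.33 for Hdac3, 1.28 for Dnmt1 and 0.96 for Hdac1. Without naive replicate 2 that of Hdac3 was 0.74. Between 24 h and 48 h, in a limma fit with time and treatment as terms on the 16 stimulated arrays without TSA, 0 of 7 members were called (12.9% of genes were, in either direction). Ezh2 was nearest: 7481, 6868 and 8034 at 24 h against 3798 to 7723 at 48 h, with 24 h higher by 0.48 ± 0.16 (n = 3 and 10, limma adjusted p = 0.0564). This p was 0.0431 under median centring, 0.0348 under spike-in scaling and 0.0489 without the IFNa/b array at 72 h.

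From 48 h to 72 h 4 of the 7 were called lower in that fit, against 15.9% of genes. Uhrf1 read 2636, 3038 and 3718 at 72 h with Ag-B7, IL-12 and IFNa/b, below all 10 arrays at 48 h (4993 to 8286), and fell by 0.95 ± 0.16 on the log2 scale (n = 3 and 10, limma adjusted p = 0.000152). By its brighter probe set Hat1 read 2262, 2715 and 3608 against 4951 to 11228 and fell the most (-1.38 ± 0.19, limma adjusted p = 2.93e-05). Hat1's second probe set read 1258, 1298 and 1806 at 72 h against 1792 to 2798 at 48 h, so there the arrays overlapped. Hdac1 read 2769, 2154 and 2565 against 2901 to 3670 and fell slightly (-0.40 ± 0.10, limma adjusted p = 0.00354), a call lost under spike-in scaling (-0.36, limma adjusted p = 0.269). By the brightest probe sets of these 3 genes the arrays of 72 h and 48 h did not overlap, as held for 10.1% of genes in this direction. Hdac2 read 1246, 1922 and 1695 against 1722 to 5165, overlapping, and fell by 0.78 ± 0.18 (limma adjusted p = 0.00249).

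Ezh2, Hdac3 and Dnmt1 were not called from 48 h to 72 h. The Ezh2 difference was -0.42 ± 0.16 (limma adjusted p = 0.0505), and it was called without the IFNa/b array at 72 h (-0.59, limma adjusted p = 0.0251) and under median centring (-0.69, limma adjusted p = 0.00843). The 95% intervals were -0.38 to 0.22 for Hdac3 and -0.29 to 0.21 for Dnmt1, whose signals at 72 h were 6331, 4895 and 7479 against 5149 to 7402 at 48 h. In the same fit 22 of 26 replication genes and 7 of 8 chromatin assembly genes fell, with medians of -0.92 and -0.45 against 0.15 for all genes. Within each treatment, with 1 array at 72 h against the mean at 48 h, 2 members passed 2-fold lower with Ag-B7 (Hat1 -1.68 and Uhrf1 -1.21; 6.59% of genes), 1 with IL-12 (Hat1 -1.49; 6.39%) and 0 with IFNa/b (4.2%).

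**Figure D4:**
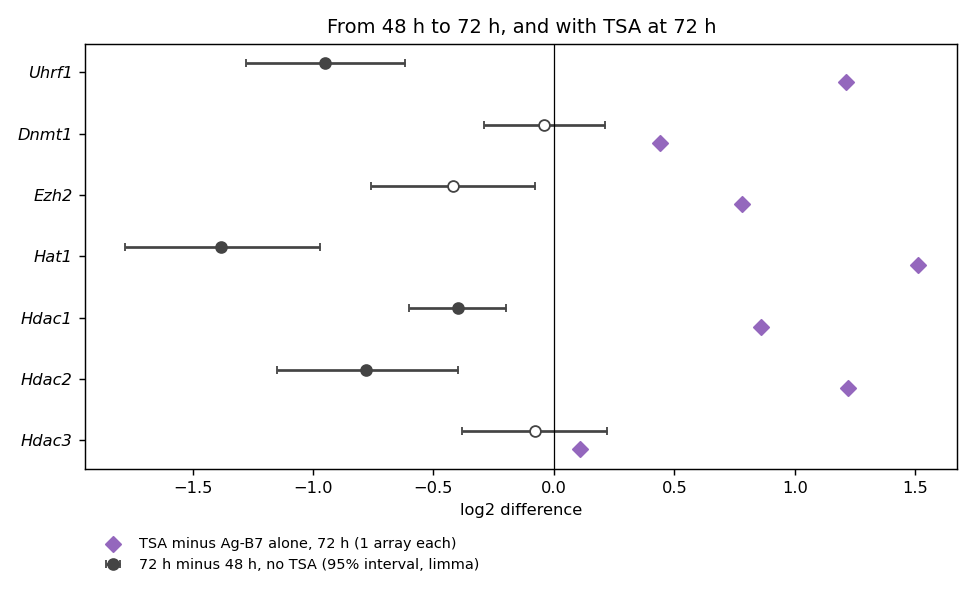
Log2 difference of 72 h from 48 h over the 3 treatments without TSA (circles, 95% interval from limma, filled where the adjusted p is below 0.05) and of the TSA array from the Ag-B7 array at 72 h (diamonds, 1 array each, no error). The circles of Hat1, Uhrf1, Hdac2 and Hdac1 are filled and below 0, and all 7 diamonds are above 0, from 0.11 for Hdac3 to 1.51 for Hat1.

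TSA inhibits the enzymes that Hdac1, Hdac2 and Hdac3 encode, and its single array at 72 h was compared with the other arrays of that time, without a replicate check. All 7 members read higher with TSA than with Ag-B7 alone, by a median log2 difference of 0.86 against 0.01 for all genes, and 3 passed 2-fold, where 7.09% of genes did so upward. By its brightest probe set each of the 7 also read higher than in the IL-12 and IFNa/b arrays. The share of all genes that did so was not counted. Against IFNa/b, however, Ezh2 turned to -0.03 with quantile normalization, to -0.01 with median centring and to -0.36 with spike-in scaling. That last scaling also turned Dnmt1 to -0.17.

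Among the deacetylases Hdac1 read 5067 with TSA, against 2769 with Ag-B7, 2154 with IL-12 and 2565 with IFNa/b, and this was the highest of its 20 arrays. The log2 difference from Ag-B7 was 0.86 and that from IL-12 1.22. Hdac2 read 2958 (1.22 above Ag-B7), within its 48 h range of 1722 to 5165. Hdac3 read 1392 against 1285, 1162 and 1042, a difference of 0.11 from Ag-B7.

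By its brighter probe set Dnmt1 also had its highest value of all arrays with TSA, 8634, but only 0.44 above the Ag-B7 array at 72 h. Hat1 read 6514 (1.51 above Ag-B7) and Uhrf1 6171 (1.21 above), each within its range at 48 h. Hat1's second probe set differed less, 1797 against 1258 with Ag-B7, which is short of 2-fold. It was not above the IFNa/b array at 72 h (1806). Ezh2 read 5546, 0.78 above Ag-B7 and 0.01 from the IFNa/b array.

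Against IL-12 at 72 h 3 members passed 2-fold higher with TSA, Hdac1, Hat1 (1.25) and Uhrf1 (1.01), where 8.6% of genes did, and against IFNa/b 0 did, where 7.31% did. The replication genes moved in the same direction: 7 of 26 passed 2-fold higher with TSA than with Ag-B7 alone, with a median of 0.90, and their median level on the TSA array was 11.57 (log2) against 10.78. Relative to that level, with the naive mean at 0, the TSA and Ag-B7 arrays read -0.28 and -0.35 for Hdac1, -0.52 and -0.17 for Dnmt1, 2.35 and 1.93 for Uhrf1, 0.87 and 0.88 for Ezh2, 0.20 and -0.51 for Hat1, -0.89 and -1.32 for Hdac2 and -0.52 and 0.16 for Hdac3.

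The median log2 differences of the other chromatin lists between TSA and Ag-B7 alone were -0.23 for the other deacetylases, -0.07 for the complex partners, 0.14 for Polycomb, 0.07 for DNA methylation, -0.08 for heterochromatin, 0.56 for chromatin assembly and -0.66 for the other acetyltransferases. Of these 8 acetyltransferases 1 passed 2-fold higher and 3 lower, where 7.09% and 8.97% of all genes did, with 1 array a side. Of the 7 genes known to be raised by deacetylase inhibitors 1 passed 2-fold higher, the metallothionein Mt1 (1.51), and the median was 0.11. Summed markers on the TSA and Ag-B7 arrays at 72 h were 1480 and 1781 for B cells, 425 and 614 for CD4 T cells, 2543 and 2962 for myeloid cells, 830 and 6113 for the NK list with Klrk1, 3934 and 3275 for stromal and endothelial cells, 392 and 332 for erythroid cells and platelets, and 87789 and 113256 for CD8 T cells. Their part in the differences was not tested.

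Across the 11 groups the naive group was lowest for 6 of the 7 members, and for Hdac2 the Ag-B7 array at 72 h (1246) lay just below the 3 naive arrays (1264 to 1464). With Ag-B7 alone the 24 h array of Ezh2, Hdac2 and Dnmt1 lay above all 48 h and 72 h arrays, and that of Hat1 (7917) lay within its 48 h range (5726 to 8919). This is 1 array at 24 h, the share of all genes with that order was not counted, and the time fit called 0 of 7 members. Dnmt1's dimmer probe set did not show that order (103 at 24 h against 37 to 125 at 48 h). Over all 20 arrays Hdac1 and, by its brighter probe set, Dnmt1 were highest on the single TSA array. The share of all genes highest on that array was not counted. Levels of neighbouring stimulated groups at 48 h overlapped for all 7 except for the cases of Hdac1, Hdac2 and Hdac3 given above. Over the 11 group means, which share the naive group as their low end, the members' Pearson correlations ran from 0.496 for Hdac2 and Hdac3 to 0.967 for Ezh2 and Uhrf1.

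The genes whose group means were most like a member's were sought among all genes past the filter, over the same 11 means and as a description. For Uhrf1 they were Txn1 (0.995), Rfc2 (0.992) and Aurkb (0.991). For Ezh2 they were the mitotic kinase Haspin and the primase subunit Prim1 (both 0.984) and the DNA ligase Lig1 (0.982). For Hat1 they were Gspt1 (0.991), Polr2f and Mrpl12 (both 0.989), and for Dnmt1 Gsto1 (0.972), the condensin subunit Smc2 (0.956) and the lamin Lmnb1 (0.944). For Hdac1 they were Suclg1 (0.973), Asf1b (0.959) and Chaf1a (0.949), the last of which is the large subunit of the chromatin assembly factor. For Hdac2 they were Gorasp2 (0.941), Lrrc59 (0.936) and Timm13 (0.935), and for Hdac3 Smim20 (0.951), Mrpl4 (0.95) and Ndufv2 (0.944).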

How the data were processed

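RNA of 20 cultures or cell samples was hybridised to 1 Affymetrix array each. The deposited values are intensity values, MAS5 signals made by the authors, per the submitters' processing notes; no version of it is named there. Their trimmed mean was 1000.46 to 1000.74 on every array, so each array was scaled to a common mean, and differences are relative to total labelled RNA. The number of arrays limits the precision.

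Probe sets with 1 symbol in the platform annotation were used, the brightest standing for a gene. Signals were taken as log2(signal + 46.4), where 46.4 is the median over arrays of the 20th percentile, which understates changes of dim genes. A gene was kept where it passed the 40th percentile of 3 or more of the 13 arrays in replicated groups. A single limma model (version 3.58.1, under R 4.3.3) held the 4 replicated groups, leaving 9 residual degrees of freedom. All p-values are two-sided and were adjusted by Benjamini and Hochberg's method over 6279 genes; ± is the SE of limma unless named SD. Groups of 1 array were described by differences, counted past 2-fold. A fit of time with treatment as a term (11 residual degrees of freedom) was added after the data were seen, and it assumes 1 time effect in all treatments. The code was tested on simulated data.

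Members and gene lists were chosen with earlier results of these data known. Named genes were all members, at most 2 called risers and 2 called fallers of each list, and the 3 genes most correlated with each member; Ezh1 and the marker genes were named outside this rule, after their values were seen. Replicate numbers were checked as pairs. Between Ag-B7 and IL-12 at 48 h same-numbered arrays deviated together from their group means (correlations 0.28, 0.279 and 0.276). Other pairs of groups did not all pass 0.1. Between Ag-B7 and IFNa/b at 48 h same-numbered arrays gave 0.112, -0.0418 and -0.0966. Ag-B7 replicates 2, 3 and 4 with IFNa/b replicates 1, 2 and 3 gave 0.283, 0.278 and 0.454. A fit with the number as a block was run as an alternative. It cannot check a pairing that does not follow the numbers. The other alternatives were the normalization, the pseudocount, the dim filter, the mean of all probe sets and each replicate left out.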

Additional observations from a re-analysis of the deposited data

Results flagged for a closer look

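The difference of IL-12 from Ag-B7 alone for Hdac2 had opposite signs at 24 h and 48 h, and it was not called at 48 h. At 24 h the IL-12 array lay below the Ag-B7 array (log2 difference -0.20, 1 array each), and at 48 h all 3 IL-12 arrays lay above all 4 Ag-B7 arrays (0.80 ± 0.20, SE of limma, limma adjusted p = 0.117). At 72 h the IL-12 array lay above the Ag-B7 array (0.61, 1 array each). The difference between the times was not tested, since 24 h has 1 array a group.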

How the results depend on the processing

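For the 48 h groups against naive cells, 336 alternative values kept their direction and their side of the threshold, 5 kept the direction only and 2 reversed. Taking the mean of all probe sets turned Dnmt1 to -0.32 with Ag-B7, -0.20 with IFNa/b and -0.04 with Ag-B7 at 24 h, and left 0.05 with IL-12, because its dimmer probe set runs the other way. With naive replicate 1 alone, an alternative chosen after seeing the data, 2228, 2212 and 2163 genes were called for Ag-B7, IL-12 and IFNa/b. In the 48 h cytokine comparisons 0 members were called under every setting run, and 329 values kept their side of the threshold. For IL-12 against Ag-B7, 39 genes were called, 23 under median centring, 16 under spike-in scaling and 16 to 31 with 1 replicate left out; for IFNa/b, 27 were called and 14 to 32 with 1 left out. With the replicate number as a block, 35, 40 and 68 genes were called for IL-12, IFNa/b and IL-12 against IFNa/b. The block changed no member's call in any of the 6 comparisons at 48 h. Same-numbered Ag-B7 and IFNa/b arrays did not all deviate together, so for IFNa/b the block does not check the pairing.

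Among comparisons of 1 array, 485 values kept, 67 moved and 1 turned. Spike-in scaling put 4 members past 2-fold higher for IFNa/b against Ag-B7 at 72 h; it moved the median of all genes there from -0.04 to 0.52 and the share past 2-fold higher from 3.93% to 15.9%. From 48 h to 72 h, 3 members passed 2-fold with IL-12 under median centring (12% of genes lower) and 1 to 3 with 1 replicate left out, and with IFNa/b 1 under median centring (7.15% lower) and 0 to 1. Between 24 h and 48 h 1 member was called under median centring, 1 under spike-in scaling and 0 to 1 with 1 array left out; the cause was not tested. In that fit 812 genes were called, but 221 to 398 with an array of 24 h left out and 275 under spike-in scaling, and from 48 h to 72 h 2273 were called, but 1515 without the Ag-B7 array of 72 h and 1143 under spike-in scaling. Every comparison at 24 h and 72 h rests on 1 array a group. The dim Dnmt1 probe set and, in naive cells, Hdac3, Uhrf1 and the second Hat1 probe set lie nearest to background.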
